A study of Arabidopsis thaliana with 12 samples.

Results

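Isocitrate lyase, ICL (AT3G21720), an enzyme particular to the glyoxylate cycle, was measured by 1 probe set in roots of Arabidopsis thaliana across 2 genotypes and 2 nitrogen supplies. It is the measured member of a set of 3 enzymes of the glyoxylate cycle and gluconeogenesis that also holds the malate synthase AT5G03860 and the phosphoenolpyruvate carboxykinase AT4G37870. Members were matched by gene identifier through the annotation of the array. ICL had 1 named probe set, out of 13286 genes named on the array, and the other two had 0 and were not analysed here. ICL was picked because it was among the strongest increases in hni9 roots at high nitrogen, with its levels in all 4 groups known, so its levels are given as a description and were not tested.

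The groups were hni9 at low nitrogen, WT at low nitrogen, hni9 at high nitrogen and WT at high nitrogen, with 3 biological replicates and 3 arrays each. The genotype hni9 carries a mutation in HNI9/IWS1, a nuclear protein that acts while RNA polymerase II transcribes, and WT is the wild type. Low nitrogen was a steady supply of 0.3 mM KNO3 and high nitrogen a steady supply of 10 mM NH4NO3, so how much nitrogen was given and in which salt cannot be told apart. The labels give neither the kind of mutation nor the age of the plants. In the titles the mutant is called hni9-1 in both arrays of replicate 1, hni9-2 in both of replicate 2, and plain hni9 in replicate 3; nothing says if these are alleles. Beyond calling the replicates biological, the sources say nothing of separate cultures, so p-values measure the spread between these samples.

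The glyoxylate cycle runs in peroxisomes and the cytosol and lets a plant cell make sugar from the acetyl units of fatty acids. Isocitrate lyase splits isocitrate into succinate and glyoxylate, malate synthase joins glyoxylate to acetyl-CoA, and phosphoenolpyruvate carboxykinase turns oxaloacetate into phosphoenolpyruvate on the way to sugar. The cycle bypasses the decarboxylations of the tricarboxylic acid cycle. It is best known from oilseed seedlings that live on stored lipid, and its genes are also known to come on in senescing and carbon-starved tissue.

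All values are array intensities on a linear scale, deposited with each array scaled so that its trimmed mean is 500. Array medians lay between 199.8 and 221.7. GAPDH controls at both ends of the transcript gave a 3′ over 5′ ratio, a sign of RNA quality, of 0.976 to 1.27 in hni9 at low nitrogen, 0.921 to 1.19 in WT at low nitrogen, 1.03 to 1.25 in hni9 at high nitrogen and 1.31 to 1.35 in WT at high nitrogen. The samples are bulk roots, in which fewer cells of a type and less RNA per cell cannot be told apart. Few tissue markers carried a name. Of 10 root markers 2 did, the root hair expansins EXPA7 and EXPA18, whose summed intensity was 1297 to 1554 in hni9 at low nitrogen, 1152 to 1355 in WT at low nitrogen, 1456 to 1579 in hni9 at high nitrogen and 1526 to 1860 in WT at high nitrogen. EXPA7 rose in hni9 at low nitrogen by 0.65 ± 0.12 on the log2 scale and at high nitrogen by 0.47 ± 0.12 (adjusted p = 0.00862 and 0.0235), and EXPA18 fell by 0.86 at high nitrogen (SE 0.13, adjusted p = 0.00102).

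ICL was higher in hni9 than in WT roots at both nitrogen supplies. At high nitrogen its intensity was 880, 1022 and 726 in hni9 roots, against 156, 146 and 176 in WT roots. The lowest hni9 array was 4.13 times the highest WT array. The means were 876 ± 148 in hni9 and 159 ± 15.0 in WT (SD, n = 3 each), a ratio of 5.50. On the log2(intensity + 16) scale the difference was 2.34 ± 0.35 (SE of limma), and 4 of the 22746 probe sets tested had a more positive difference. At this supply 13.5% of all probe sets had all 3 hni9 arrays above all 3 WT arrays, and 7.67% were called at a false discovery rate of 0.05 in either direction. ICL was chosen on this comparison, so nothing is read from its place among them.

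At low nitrogen ICL had 335, 870 and 247 in hni9 roots, against 56.0, 119 and 105 in WT roots. All 3 hni9 arrays again lay above all 3 WT arrays, as did those of 8.68% of all probe sets, while 9.64% had them below and 2.06% were called in either direction. The means were 484 ± 337 in hni9 and 93.3 ± 33.1 in WT (SD, n = 3 each), a ratio of 5.18. The log2 difference was 2.04 ± 0.35, with 6 probe sets more positive. That SE is the shared one, while the log2 SD of these arrays was 0.92 in hni9 and 0.48 in WT. Replicate 2 carried much of the mean in hni9, and without it the log2 difference was 1.52. With 1 or 64 added to the intensities in place of 16, the difference was 2.21 and 1.65 at low nitrogen and 2.44 and 2.06 at high nitrogen.

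**Figure D1:**
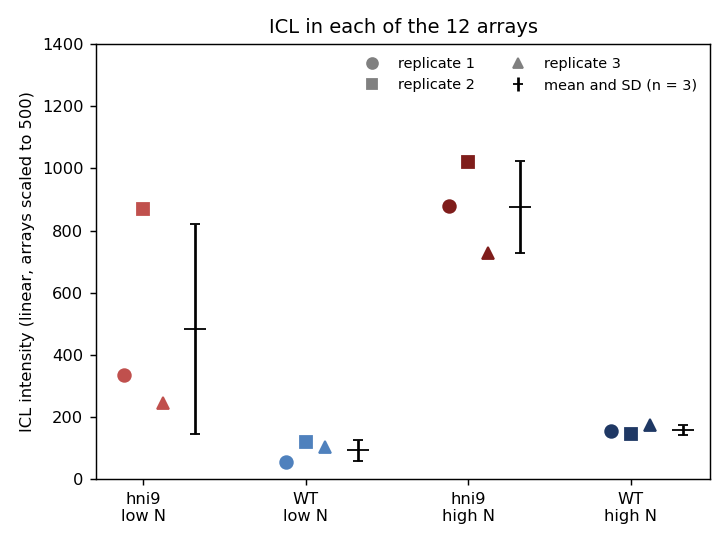
Intensity of ICL (linear scale, vertical axis) in each of the 12 arrays by group, with a marker for each replicate number and a bar for the mean and SD of 3 arrays. The hni9 arrays lie between 247 and 1022 and the WT arrays between 56.0 and 176, and replicate 2 of hni9 at low nitrogen stands at 870 while the others of its group are at 335 and 247.

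ICL was lower at low than at high nitrogen in WT. All 3 WT arrays at low nitrogen (56.0 to 119) lay below all 3 at high nitrogen (146 to 176), as did those of 13.3% of all probe sets, and 5.74% of probe sets were called in this comparison in either direction. The means were 93.3 ± 33.1 at low and 159 ± 15.0 at high nitrogen (SD, n = 3 each), a ratio of 0.585. The log2 difference was -0.73 ± 0.35, or -0.45 without WT replicate 1 at low nitrogen, the array with the lowest ICL value of the 12.

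In hni9 the groups at low and high nitrogen overlapped, with 247 to 870 at low against 726 to 1022 at high nitrogen, where 8.21% of all probe sets had all low nitrogen arrays above and 11.4% all below. Their means were 484 ± 337 at low and 876 ± 148 at high nitrogen (SD, n = 3 each), a ratio of 0.552, and 5.1% of probe sets were called in this comparison in either direction. The log2 difference was -1.03 ± 0.35. It was -1.54 without hni9 replicate 2 at low nitrogen and -0.67 without hni9 replicate 3 at low nitrogen, so the overlap and the size both rested on single arrays.

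The order of the group means was hni9 at high nitrogen, hni9 at low nitrogen, WT at high nitrogen and WT at low nitrogen. The first 2 overlapped and the others were separated from their neighbours, with the lowest array of hni9 at low nitrogen 1.40 times the highest of WT at high nitrogen. The ICL difference between hni9 and WT was 2.34 at high and 2.04 at low nitrogen, and the first less the second was 0.30 ± 0.50 on the log2 scale. That value ran from -0.06 without hni9 replicate 3 at low nitrogen to 0.81 without hni9 replicate 2 at low nitrogen, so its sign was not settled. It was 0.57 without WT replicate 1 and 0.12 without WT replicate 2 at low nitrogen.

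**Figure D2:**
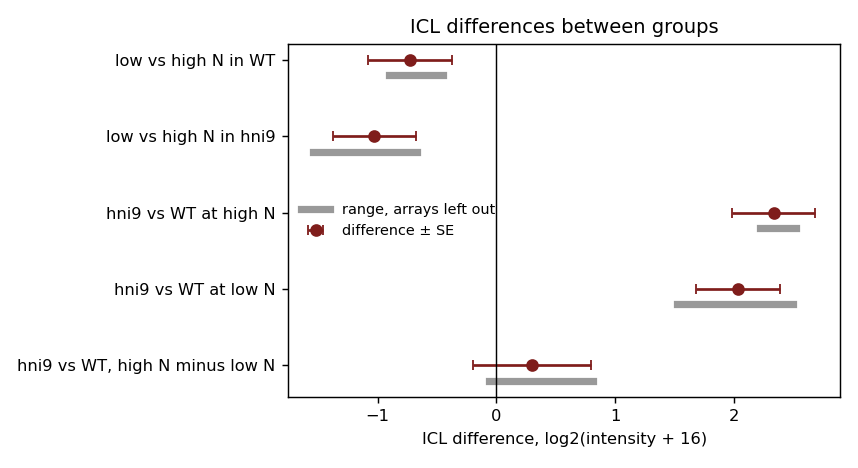
Differences of ICL on the log2(intensity + 16) scale (horizontal axis) for the 4 comparisons of 2 groups and for the genotype difference at high less that at low nitrogen, as points with the SE of limma. Grey bars span the values with arrays left out; both genotype differences stay at or above 1.52 in these, and the bar of the last comparison crosses 0.

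Set number by number, hni9 exceeded WT at high nitrogen by 2.38, 2.68 and 1.95 on the log2 scale for replicates 1, 2 and 3. At low nitrogen the differences were 2.28, 2.71 and 1.12. Replicate 2 had the largest excess and replicate 3 the smallest at both supplies. Replicate 2 is titled hni9-2, and whether an allele or a culture is behind its values was not tested. In hni9 the low less the high nitrogen difference was -1.35, -0.23 and -1.50 for replicates 1, 2 and 3, and in WT it was -1.26, -0.27 and -0.66.

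Pooled over the 4 groups, ICL varied more between arrays of a group than most probe sets of like mean. Its residual SD within groups was 0.54 on the log2 scale. The median was 0.23 over the 2103 probe sets whose mean lay within 0.25 of its own, and 98.9% of these had a smaller one. The spread lay mainly at low nitrogen, where the log2 SD of ICL was 0.92 in hni9 and 0.48 in WT. At high nitrogen it was 0.24 in hni9 and 0.12 in WT. Replicate 2 of hni9 at low nitrogen also had the highest GAPDH ratio of its group, at 1.27 against 1.11 and 0.976. In WT at high nitrogen replicate 3 likewise had the highest ratio (1.35) and ICL value (176). In WT at low nitrogen the highest ratio (1.19, replicate 1) went with the lowest ICL value (56.0). In hni9 at high nitrogen replicate 1 had the highest ratio (1.25) and replicate 2 the highest ICL value (1022). The part of RNA quality in the ICL values was not tested. The place of replicate 2 of hni9 at low nitrogen on the nitrogen response was that of its group. Over the 1305 probe sets called between the supplies in WT, signed by their direction there, the mean log2 deviation from the average of all arrays was 0.25, 0.29 and 0.29 for replicates 1, 2 and 3 of hni9 at low nitrogen. It was 0.43 to 0.46 in WT at low nitrogen, -0.23 to -0.18 in hni9 at high nitrogen and -0.53 to -0.51 in WT at high nitrogen. The probe sets and their signs were chosen on these same WT arrays, which favours WT scores that lie far apart. Nothing is therefore read from the hni9 scores lying between those of WT.

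Markers of other tissues and states were sparse beside ICL. Of 13 seed and oil body genes 1 was named, the oleosin OLEO3, a coat protein of oil bodies. It had 72.6 to 103 in hni9 at low nitrogen, 48.2 to 148 in WT at low nitrogen, 85.8 to 122 in hni9 at high nitrogen and 58.2 to 94.5 in WT at high nitrogen, and the genotypes overlapped at both supplies. Of 13 green tissue genes 1 was named, the Rubisco activase RCA, with 238 to 1180 in hni9 at low nitrogen, 500.2 to 631 in WT at low nitrogen, 144 to 584 in hni9 at high nitrogen and 393 to 583 in WT at high nitrogen. The array with 1180 was replicate 1 of hni9 at low nitrogen, where ICL had 335. In replicate 2 of that group, where ICL had 870, RCA had 290. Of 7 senescence genes 1 was named, SAG101, with 113 to 136 in hni9 at low nitrogen, 130 to 225 in WT at low nitrogen, 149 to 235 in hni9 at high nitrogen and 108 to 167 in WT at high nitrogen. The part of these tissues in the ICL values was not tested.

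Most of the measured genes around ICL in carbon metabolism did not pass the test between the genotypes. Of 100 genes in 6 lists of the glyoxylate cycle, gluconeogenesis, the phosphoenolpyruvate and pyruvate node, fatty acid breakdown, the tricarboxylic acid cycle and carbon starvation, 27 had a named probe set. Of 12 glyoxylate cycle genes only ICL itself was named, and of 12 genes of the phosphoenolpyruvate and pyruvate node 0 were. The 27 thus come from the other lists, 15 of them from the tricarboxylic acid cycle, and the rest of the glyoxylate cycle was not measured. At high nitrogen 3 of the 27 rose in hni9 and 0 fell, 11.1% of the list called higher against 3.34% of all 22746 probe sets, of which 4.33% were called lower. Their median log2 difference was 0.08, against 0.03 over all probe sets. At low nitrogen 1 of 27 rose and 0 fell, 3.70% called higher against 0.73% of all probe sets, of which 1.33% were called lower, with a median of 0.01 against -0.00. These are small counts, and with no trend of the variance in limma they were 1 at high and 0 at low nitrogen.

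SDH1-2 (AT2G18450), a flavoprotein of the succinate dehydrogenase that oxidises succinate, was the gene of the 27 that rose in hni9 at both supplies. It had 280, 206 and 237 in hni9 roots at low nitrogen, against 71.7, 104 and 150 in WT roots. At high nitrogen it had 296, 228 and 228 in hni9 roots, against 98.9, 124 and 135 in WT roots. All hni9 arrays lay above all WT arrays at each supply. SDH1-2 rose by 1.08 ± 0.25 at low nitrogen (adjusted p = 0.0393) and by 0.98 ± 0.25 at high nitrogen (adjusted p = 0.0276).

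Both calls of SDH1-2 lay close to the threshold. At high nitrogen leaving out hni9 replicate 1 or 3 ended the call (adjusted p = 0.111 and 0.0563), as did leaving out WT replicate 1, 2 or 3 there (0.101, 0.0671 and 0.0507). The call at low nitrogen was lost without hni9 replicate 1, 2 or 3 (0.131, 0.0539 and 0.0962) or WT replicate 1 or 2 (0.145 and 0.114) at low nitrogen, or hni9 replicate 3 or WT replicate 2 at high nitrogen (0.05001 and 0.0558). It was also lost with no variance trend (0.0689) and with only the groups compared (0.108). Its partner SDH1-1, the other flavoprotein gene of the enzyme, chosen after its values were seen, had 0.05 ± 0.10 at high nitrogen (adjusted p = 0.837) and -0.01 ± 0.10 at low nitrogen (adjusted p = 0.994).

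AT5G55070, a subunit of the 2-oxoglutarate dehydrogenase of the tricarboxylic acid cycle, rose in hni9 at high nitrogen by 0.73 ± 0.20 (adjusted p = 0.0402). It had 3176, 2769 and 3398 in hni9 roots, against 1430, 1708 and 2655 in WT roots. The groups did not overlap. Among the high nitrogen arrays, leaving out hni9 replicate 1 or 3 (adjusted p = 0.108 and 0.126) or WT replicate 1 or 2 (0.168 and 0.136) ended the call. So did leaving out WT replicate 2 at low nitrogen (0.0572) or the variance trend (0.127), or fitting only the groups compared (0.0590). At low nitrogen its difference was 0.01 ± 0.20 (adjusted p = 0.998), and the interaction, the hni9 less WT difference at high less that at low nitrogen, was 0.72 ± 0.28 (adjusted p = 0.359).

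TPI, the triose phosphate isomerase of the cytosol that glycolysis and gluconeogenesis share, rose in hni9 at high nitrogen by 0.44 ± 0.12 (adjusted p = 0.0353). It had 17015, 15091 and 16248 in hni9 roots, against 12279, 10645 and 12807 in WT roots. Among the high nitrogen arrays, leaving out hni9 replicate 1 or 3 (adjusted p = 0.116 and 0.0976) or WT replicate 1, 2 or 3 (0.0785, 0.154 and 0.0559) ended the call. It was also lost without WT replicate 1 at low nitrogen (0.0524), with arrays centred on their medians (0.0571), with no variance trend (0.0783) and with only the groups compared in the fit (0.0562). At low nitrogen its difference was -0.21 ± 0.12 (adjusted p = 0.507), and its interaction was 0.64 ± 0.17 (adjusted p = 0.115).

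Other named genes of gluconeogenesis and lipid breakdown did not pass between the genotypes. PPDK, a dikinase that makes phosphoenolpyruvate from pyruvate, had 0.45 ± 0.27 at high nitrogen (adjusted p = 0.392) and 0.06 ± 0.27 at low nitrogen (adjusted p = 0.966). SDP1, a lipase that starts the breakdown of stored triacylglycerol in seeds, had 0.03 ± 0.14 at high nitrogen and -0.35 ± 0.14 at low nitrogen (adjusted p = 0.936 and 0.278). AIM1, a multifunctional protein of peroxisomal fatty acid oxidation, had -0.02 ± 0.16 at high nitrogen and -0.23 ± 0.16 at low nitrogen (adjusted p = 0.961 and 0.611). These 3 were named after their values were seen, for their steps. By list, 1 of 4 gluconeogenesis and glycolysis genes, 0 of 3 fatty acid and lipid breakdown genes, 2 of 15 tricarboxylic acid cycle genes and 0 of 5 carbon starvation and amino acid breakdown genes rose at high nitrogen, and 0 of the 27 fell.

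**Figure D3:**
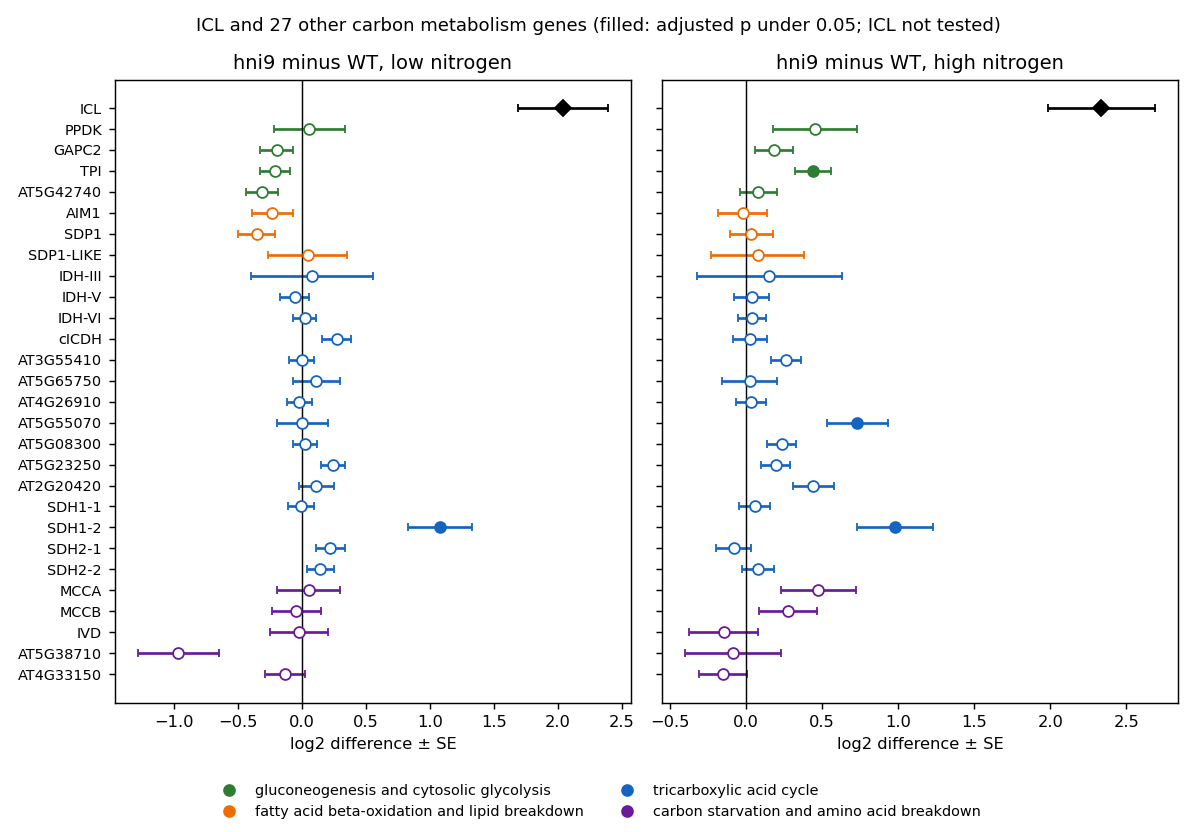
Differences of hni9 less WT on the log2(intensity + 16) scale with the SE of limma (horizontal axis) for ICL and the 27 other genes of its lists (vertical axis), at low nitrogen on the left and high nitrogen on the right. Filled points passed an adjusted p of 0.05: SDH1-2 at low nitrogen, and SDH1-2, AT5G55070 and TPI at high nitrogen; ICL, at 2.04 and 2.34, was not tested.

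Enzymes of citrate or isocitrate were taken from a name search of the annotation. Of these compounds only isocitrate is a substrate of ICL. Of 10 genes, isocitrate dehydrogenases and subunits of the ATP-citrate lyase, 0 passed between hni9 and WT at high nitrogen and 0 at low nitrogen under limma, with 1 and 2 at an unadjusted p under 0.05. Of all probe sets 7.67% were called at high and 2.06% at low nitrogen, so 0 of 10 is near the background. Their differences ran from -0.19 to 0.28 at high nitrogen and from -0.23 to 0.30 at low nitrogen. The medians were 0.03 and 0.05. The cytosolic isocitrate dehydrogenase cICDH, which uses the same substrate as ICL, had 0.02 ± 0.11 at high nitrogen (adjusted p = 0.943) and 0.27 ± 0.11 at low nitrogen (adjusted p = 0.294).

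Between the supplies few of these genes were called. In WT 1 of 27 passed, cICDH, which fell by 0.45 at low nitrogen (SE 0.11, adjusted p = 0.0286). It had 11208, 11405 and 10975 at low nitrogen, against 14966, 17532 and 13776 at high nitrogen. Leaving out WT replicate 1 or 2 at high nitrogen (adjusted p = 0.0733 and 0.138) or any WT array at low nitrogen (0.0868, 0.0801 and 0.0966) ended the call, as did centring arrays on their medians (0.133) or no variance trend (0.0680). The share of 3.70% called lower stood beside 2.9% of all probe sets, and 0 of 27 called higher beside 2.84%.

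In hni9 1 of 27 passed between the supplies, the proline dehydrogenase AT5G38710, which starts the breakdown of proline in mitochondria. It had 172, 67.9 and 174 at low nitrogen, against 382, 258 and 558 at high nitrogen, and fell by 1.46 (SE 0.31, adjusted p = 0.0135). The groups did not overlap, and the call was lost without hni9 replicate 3 at high nitrogen (adjusted p = 0.0668) with no variance trend (0.0548) and with only the groups compared (0.0945). In WT the same gene had 204, 284 and 319 at low nitrogen, against 372, 376 and 479 at high nitrogen. The WT groups did not overlap either, and the difference of -0.59 ± 0.31 did not pass (adjusted p = 0.369). Its interaction was 0.88 ± 0.44 (adjusted p = 0.512), so a response particular to hni9 was not shown. The share of 3.70% called lower stood beside 2.12% of all probe sets, and 0 of 27 called higher beside 2.98%.

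Of 9 autophagy genes, another list from the name search, 2 passed in hni9 between the supplies and 0 in WT under limma (0 at an unadjusted p under 0.05), beside 2.98% of all probe sets called higher in hni9 and 2.84% in WT. APG8A (AT4G21980), a ubiquitin-like protein of the autophagosome membrane, had 3537, 3133 and 2960 at low nitrogen, against 2515, 2172 and 1853 at high nitrogen, in hni9. It rose by 0.56 ± 0.12 (adjusted p = 0.0137), a call lost without hni9 replicate 3 at high nitrogen (0.0658) or hni9 replicate 1 at low nitrogen (0.0677), with no variance trend (0.0764) and with only the groups compared (0.0670). APG8H (AT3G15580), of the same family, rose by 0.32 ± 0.09 (adjusted p = 0.04999), a call lost without any 1 of 11 arrays, the exception being hni9 replicate 3 at low nitrogen, and with no variance trend (0.175) or only the groups compared (0.183). For ICL the low less the high nitrogen difference in hni9 had the opposite sign. In WT, APG8A and APG8H also had positive differences, of 0.19 ± 0.12 and 0.16 ± 0.09 (adjusted p = 0.475 and 0.391). Their interactions were -0.37 ± 0.17 and -0.16 ± 0.12 (adjusted p = 0.450 and 0.715), and the interaction passed for 0 of the 9 genes under limma. A response particular to hni9 was thus not shown.

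The interaction passed for 0 of the 27 genes under limma, with 3 at an unadjusted p under 0.05, and for 0.703% of all probe sets (0.259% higher and 0.444% lower).

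The genes whose pattern over the 12 arrays was most like that of ICL were ranked by Pearson correlation among 5979 probe sets with 1 named gene and a mean above the median. The arrays share their groups, so these values are a description of 4 groups more than of 12 independent points. The first was AT2G29500, a small heat shock protein gene, with r = 0.967 and a Spearman rho of 0.965. The next were AT4G31310, AT3G25470, AT2G40316 and AT5G18310, with r of 0.950, 0.945, 0.944 and 0.940, and the sixth in rank had 0.932. Without the 2 arrays farthest from the ICL median, both from hni9 at high nitrogen, r over the 10 left ran from 0.903 to 0.958 for the 5 genes.

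AT2G29500 had 1372, 2292 and 899 in hni9 at low nitrogen, against 331, 392 and 348 in WT at low nitrogen. At high nitrogen it had 1639, 2186 and 1358 in hni9, against 529, 582 and 584 in WT. Replicate 2 was the highest and replicate 3 the lowest of the hni9 arrays at both supplies, as for ICL. After group means were removed, r with ICL over the 12 arrays was 0.888 for AT2G29500, 0.835 for AT2G40316, 0.710 for AT3G25470, 0.669 for AT4G31310 and 0.462 for AT5G18310. The genes were chosen by r over these same arrays, so these values are no separate evidence.

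The other 4 genes had smaller differences. AT5G18310 had 0.53 at low and 0.59 at high nitrogen as its log2 difference between hni9 and WT, and AT4G31310 had 0.51 and 0.50. AT2G40316 had 0.32 and 0.28, and AT3G25470 had 0.15 and 0.20. All 5 were higher in hni9 at both supplies, which the ranking by likeness to ICL itself selects.

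**Figure D4:**
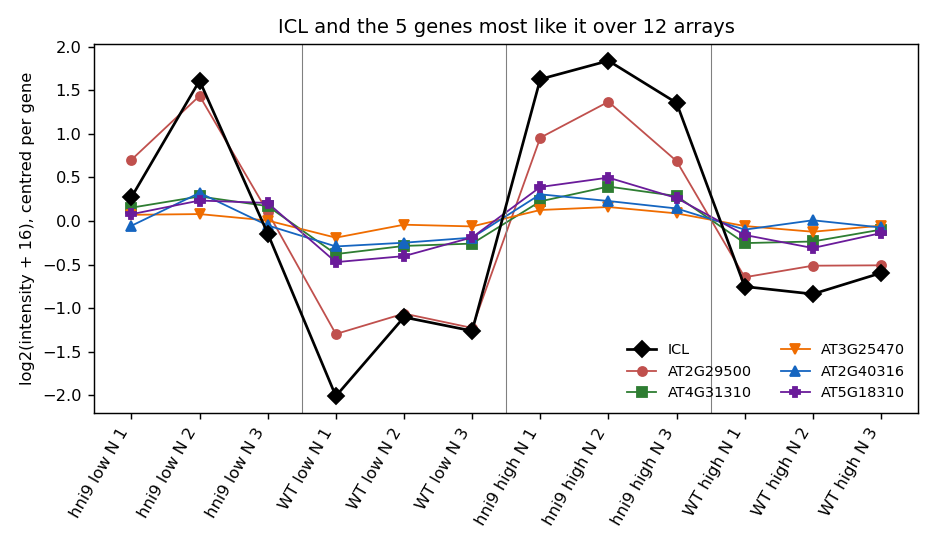
Values of ICL and of the 5 genes most like it, as log2(intensity + 16) less each gene's mean over the 12 arrays (vertical axis), for each array by group and replicate. Replicate 2 is the highest of hni9 at low nitrogen in ICL (870), AT2G29500 (2292) and the other 4 genes, whose differences between the genotypes are smaller.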

How the data were processed

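The deposited table holds an intensity for 22810 probe sets on each of 12 Affymetrix arrays, hybridised with biotin-labelled total RNA per the labels. The values show that each array was scaled to a mean of 500 over all but the highest and lowest 2% of values, with no quantile step. How probes were summarised is unknown here. After 64 control probe sets were left out, 22746 were tested. Deposited intensities were transformed here as log2(value + 16); between 10.8% and 15.0% of each array was dimmer than 16, which compresses differences of dim genes.

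All 12 arrays entered 1 linear model of group means (limma 3.58.1, R 4.3.3, moderated variances with a trend on intensity), with Benjamini-Hochberg adjustment over all probe sets and a threshold of 0.05. The fit was tested on simulated data. ICL itself was given no p-value. The number of arrays limits the precision. The platform annotation gave 1 gene to 13513 probe sets, several to 503, and did not list 8730; 13436 were matched to a RefSeq locus, and the brightest probe set stood for a gene with several.

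The members and lists were chosen with earlier results of these data known, and the 2 name searches (citrate, autophagy) were added once the coverage of the annotation was known. Named were ICL, up to 4 genes past the threshold per list and comparison, and the 5 genes most like ICL; SDH1-1, PPDK, SDP1 and AIM1 were added after their values were seen. Alternatives covered the value added, normalization, variance trend, dim probe sets, replicate block, arrays in the fit, probe sets per gene and left-out arrays.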

Additional observations from a re-analysis of the deposited data

How the results depend on the processing

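With other values added, other normalizations or arrays of the groups compared left out, ICL kept its direction in the 4 comparisons of 2 groups. None of these moved it by more than its spread between replicates. Over left-out arrays it ran from -0.91 to -0.45 for low against high nitrogen in WT, from -1.54 to -0.67 in hni9, from 2.22 to 2.53 for hni9 against WT at high nitrogen, from 1.52 to 2.50 at low nitrogen, and from -0.06 to 0.81 for the interaction. The variance trend, leaving out dim probe sets and fitting only the groups compared could not change the ICL differences. Nor could the handling of genes with several probe sets, as ICL had 1. The replicate number as a block left the ICL differences at -0.73, -1.03, 2.34, 2.04 and 0.30. Each group holds the same 3 numbers, so the block could not change them and nothing is read from it. The numbers were not shown to pair the arrays: deviations of same-numbered arrays from their group means had correlations of 0.117 to 0.150 for replicate 3 (4 pairs) and 0.0227 to 0.103 for replicates 1 and 2 (8 pairs). The arrays of replicate 3 were also deposited in a separate run of entries, and whether they are a batch is not stated. Without replicate 3 in every group, calls were lost for SDH1-2 at high and low nitrogen (adjusted p = 0.0914 and 0.129), TPI (0.122), cICDH (0.133), AT5G38710 (0.112), APG8A (0.0803) and APG8H (0.187).

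Counts depended more on the processing. Of 27 pathway genes, those past the threshold in WT between supplies were 1, or 0 with centred arrays or no variance trend, 2 after quantile normalization, and 3 with the dimmest 40% left out, with the replicate block (a paired fit) or with only the groups compared. In hni9 they were 1, or 0 with no trend or only the groups compared, and 3 with the 2 added lists. Between genotypes they were 3 at high nitrogen (1 with no trend, 2 with centred arrays or only the groups compared, 4 with the replicate block or the dimmest 40% left out) and 1 at low nitrogen (0 with no trend or only the groups compared), and for the interaction 0, or 1 with the dimmest 40% left out. With arrays left out they ran from 0 to 2 in WT, 0 to 2 in hni9, 0 to 4 at high and 0 to 1 at low nitrogen. Fewer arrays or genes tested are part of these settings; for the others the cause was not tested.

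With no trend the probe sets past the threshold were 795 against 1305 in WT, 647 against 1160 in hni9 (439 with only the groups compared), 929 against 1744 at high nitrogen, 156 against 469 at low nitrogen and 21 against 160 for the interaction. With arrays left out they ran from 413 to 1516, 362 to 1071, 482 to 1988, 83 to 616 and 1 to 254, each lowest without replicate 3 in every group. Of the 5 genes most like ICL, 2 to 5 stayed among the first 5, with 2 without hni9 replicate 2 or WT replicate 1 at low nitrogen.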
